A study of Mus musculus with 6 samples.

Results

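The genes described here are 58 genes of the cell cycle, read by phase: 7 cyclin, kinase and Myc genes of G1, 25 genes of S phase, and 26 genes of G2 and mitosis. A member was measured through a probe set annotated to exactly 1 gene symbol, and the brightest one over all 6 arrays was used where several existed. This gave 55 members among 22180 genes: Ccne2, Rfc4 and Ccnb1 had no such probe set and were not analysed here. The cells were Raw 264.7, a mouse macrophage-like line transformed by Abelson murine leukaemia virus. The 3 IL-33 arrays came from cells given 50 ng/ml of this cytokine of the IL-1 family, and the 3 PBS arrays from cells without it. Both groups had been expanded in 10% serum, starved, and then kept in 2% serum. The sources used here do not state how long treatment lasted. Nothing states either that samples of a group were separate cultures, so the p-values reflect the scatter of these 6 samples, which may be technical.

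Directions follow the sample titles. The array names inside the descriptions run the opposite way, with IL in the names of PBS arrays and P in those of IL-33 arrays, and every sign below would turn if the titles were wrong. Array medians lay between 5.31 and 5.36 (log2) and array maxima between 13.62 and 13.66. Arrays have no count depth, and their number limits the precision. The macrophage markers Csf1r and Cd68 had log2 values of 11.60 to 11.70 and 12.75 to 12.81 over the 6 arrays. The dimmest macrophage marker on the list, Fcgr3, had means of 6.66 in the IL-33 and 6.76 in the PBS arrays. Col1a1, the brightest marker of the other cell types, had means of 6.30 and 6.32. None of 8 macrophage, 5 fibroblast, 6 endothelial and epithelial and 4 lymphocyte markers passed the test below. The macrophage marker with the smallest p, Adgre1, had an adjusted p of 0.114 (limma) and a difference of -0.29 ± 0.06 (log2, SE).

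A cell commits to division in G1, when mitogens raise D-type cyclins, which bind the kinases Cdk4 and Cdk6. These kinases phosphorylate the retinoblastoma protein and free E2F factors, which turn on cyclin E and the genes that license, unwind and copy DNA. Later, B-Myb and FoxM1 act with the MuvB complex at a promoter element called the cell cycle genes homology region, or CHR, to turn on genes of G2 and mitosis. Myc, a transcription factor induced by mitogens, promotes growth and entry into S phase. Lines of the macrophage lineage often keep dividing in culture, and serum starvation slows that division.

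The RefSeq (GRCm38.p6) promoters available here numbered 52, for 47 of the 58 members. Each covered 250 bases before to 50 after a transcription start. Those of G1 belonged to 4 of the 7 G1 genes. Ccnd1, Ccnd2 and Myc had no promoter in this set and were not searched for motifs. The E2F motif was searched as TTTCCCGC, TTTGGCGC, TTTCGCGC or TTTGCCGC, the CHR as TTTGAA, and the CCAAT box, bound by NF-Y, as CCAAT, each on both strands. The E2F motif was in 9 of 23 S phase promoters (39.1%), 1 of 24 G2 and mitosis promoters (4.17%) and 1 of 5 G1 promoters, against 2.26% of all 32851 promoters. The CHR motif was in 18 of 24 G2 and mitosis promoters (75%), 2 of 23 S phase promoters (8.7%) and none of the G1 promoters, against 17.9% of all promoters. The CCAAT motif was in 22 of 24 G2 and mitosis promoters (91.7%) and 17 of 23 S phase promoters (73.9%), against 37.4% of all promoters. A match describes letters only and is not a site of binding.

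The upstream stretches below are shown because they carry these motifs in genes described later, each read 5′ to 3′ on the gene's strand and ending 1 base before the start. In the S phase genes Mcm6 and Cdc6, capitals mark the E2F motif. In Mcm6 it begins 110, 106 and 47 bases before the start, the first 2 matches overlapping on opposite strands. In Cdc6 it begins 138 bases before the start. In the G2 and mitosis genes capitals mark the CHR and CCAAT motifs, and in Cdk1 also an E2F match that begins 131 bases before the start.
Mcm6 (chr1:128359706-128359825, minus strand): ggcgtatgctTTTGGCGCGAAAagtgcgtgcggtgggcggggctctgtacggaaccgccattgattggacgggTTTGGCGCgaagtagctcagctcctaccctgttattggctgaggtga
Cdc6 (chr11:98908001-98908150, plus strand): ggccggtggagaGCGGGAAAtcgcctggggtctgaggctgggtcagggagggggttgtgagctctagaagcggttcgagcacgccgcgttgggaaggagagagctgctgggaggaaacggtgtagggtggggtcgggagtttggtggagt
Cdk1 (chr10:69352913-69353062, minus strand): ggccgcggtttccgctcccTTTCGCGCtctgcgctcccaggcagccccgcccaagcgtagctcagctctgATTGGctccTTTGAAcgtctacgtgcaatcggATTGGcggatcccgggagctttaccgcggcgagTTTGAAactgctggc
Top2a (chr11:99024190-99024349, minus strand): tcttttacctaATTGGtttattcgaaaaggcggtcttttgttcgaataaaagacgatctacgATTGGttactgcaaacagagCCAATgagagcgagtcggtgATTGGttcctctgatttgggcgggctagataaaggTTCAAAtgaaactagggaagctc
Ube2c (chr2:164769829-164769928, plus strand): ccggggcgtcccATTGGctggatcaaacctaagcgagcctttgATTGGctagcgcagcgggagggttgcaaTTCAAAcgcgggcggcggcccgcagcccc

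The comparison of IL-33 with PBS arrays asks how transcript levels differ with and without IL-33. Of the 55 measured members, 1 rose, the D-type cyclin Ccnd2, by 1.46-fold, and 54 did not pass (limma, adjusted p under 0.05 over all genes). Over all 22180 genes 0.591% passed, with 61 higher (0.275%) and 70 lower (0.316%). With so low a share, the absence of a call does not set a short list apart from all genes. Myc had the largest negative difference among members and a level 1.43-fold lower in the IL-33 arrays, but did not pass. The other 53 members lay close to 0: each 95% interval of the difference stayed within 1.5-fold in either direction, and the widest bounds were a level 1.25-fold lower and 1.28-fold higher. For 42 of the 55 the interval stayed within 1.2-fold. Intervals here are limma's, for 1 gene at a time. In bulk RNA, fewer cells in a phase and less RNA per cell cannot be told apart.

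At an unadjusted p under 0.05, 4 members were higher (Ccnd2, Ccnd3, Rfc3 and Cenpe) and 2 were lower (Myc and Cdc6), which is 10.9% of the members against 13.2% of all genes (6.42% higher and 6.74% lower). IL-33 and PBS arrays did not overlap in 16 members (29.1%), 10 higher and 6 lower, against 20.3% of all genes, 10.3% higher and 10.1% lower. The median difference was 0.016 over the members and -0.0051 over all genes (log2).

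**Figure D1:**
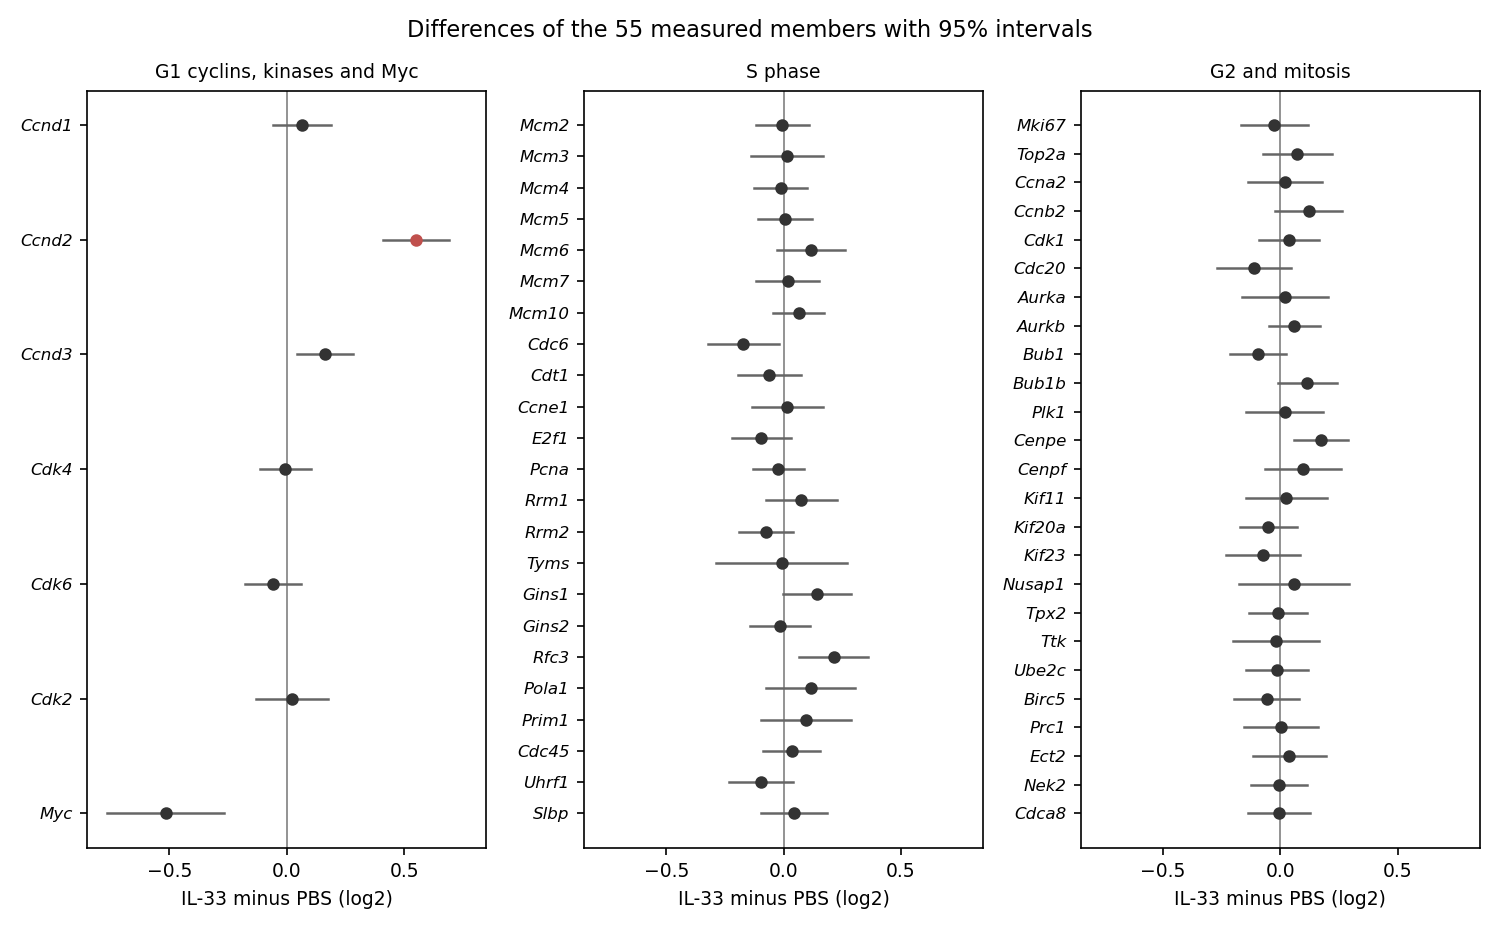
Difference between IL-33 and PBS arrays (log2, horizontal axis) for each measured member, one row a gene and one panel a phase; points are differences, bars are 95% intervals, and the red point is the member that passed. Ccnd2 at 0.55 and Myc at -0.52 stand away from 0, while all S phase and all G2 and mitosis members lie between -0.17 and 0.21.

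Among G1 genes the 3 D-type cyclins, each with 1 probe set, had differences above 0, and 1 of them passed. Ccnd2 (cyclin D2, Entrez gene 12444) had log2 values of 9.03, 8.94 and 8.99 in the IL-33 arrays, against 8.35, 8.49 and 8.46 in the PBS arrays. All 3 IL-33 arrays were above all 3 PBS arrays. The means were 8.99 ± 0.05 and 8.44 ± 0.07 (SD, n = 3 each), a difference of 0.55 ± 0.06 (log2, SE) with an adjusted p of 0.0183 (limma). By the size of its difference Ccnd2 ranked 31 among the 61 genes that rose. With any 1 array left out, the difference lay between 0.51 and 0.58 and the adjusted p between 0.0545 and 0.104 (limma), so that the call was lost in all 6 such fits, whichever of the IL-33 or PBS replicates was removed. It was also lost when p-values were adjusted over all 41345 probe sets, at an adjusted p of 0.0942 (limma). With replicate number added to the fit it was lost too, at an adjusted p of 0.117 (limma). The call held in the other 5 alternative fits that kept all arrays.

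Ccnd3 (cyclin D3), a cyclin prominent in blood cells, had log2 values of 9.71, 9.63 and 9.67 in the IL-33 arrays, against 9.51, 9.48 and 9.55 in the PBS arrays. Again the groups did not overlap, yet the difference of 0.16 ± 0.05 (log2, SE) did not pass, with an adjusted p of 0.243 (limma). Ccnd1 (cyclin D1), the family member that growth factor signalling most often induces in adherent cells, had log2 values of 12.13, 12.22 and 12.23 in the IL-33 arrays, against 12.10, 12.13 and 12.16 in the PBS arrays. Its groups overlapped, and the difference was 0.06 ± 0.05 (log2, SE) with an adjusted p of 0.669 (limma). The values of Ccnd1 lie near the top of the scale of these arrays, and whether differences are compressed there was not tested.

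Within arrays, the log2 ratio of Ccnd2 to Ccnd1 was 0.49 higher in IL-33 than in PBS arrays, and that of Ccnd2 to Ccnd3 was 0.39 higher. The ratio of Ccnd3 to Ccnd1 was 0.10 higher. In each of these 3 contrasts the groups gave an exact two-sided permutation p of 0.1 (n = 3 each; 0.1 after Benjamini-Hochberg adjustment), which is the smallest that this test can give with 3 against 3 arrays, so it cannot pass 0.05 here.

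Neither kinase that D-type cyclins bind passed. Cdk4 had log2 values of 12.23, 12.20 and 12.24 in the IL-33 arrays, against 12.24, 12.22 and 12.23 in the PBS arrays. These values are near the top of the scale too and the groups overlap, and the 95% interval of the difference ran from -0.11 to 0.10 (log2). Cdk6 had log2 values of 11.14, 11.24 and 11.23 in the IL-33 arrays, against 11.27, 11.25 and 11.26 in the PBS arrays. The groups just missed each other, with a difference of -0.06 ± 0.05 (log2, SE) and an adjusted p of 0.697 (limma). Cdk2, the partner of cyclins E and A, had log2 values of 9.80, 9.71 and 9.73 in the IL-33 arrays, against 9.81, 9.73 and 9.63 in the PBS arrays. The groups overlapped, and the difference was 0.02 ± 0.06 (log2, SE).

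Myc (Entrez gene 17869) had log2 values of 9.55, 9.41 and 9.15 in the IL-33 arrays, against 9.98, 9.86 and 9.83 in the PBS arrays. All IL-33 arrays were below all PBS arrays, but the IL-33 arrays were more spread, with an SD of 0.20 against 0.08 (n = 3 each). The difference was -0.52 ± 0.11 (log2, SE) with a 95% interval of -0.765 to -0.27 and an adjusted p of 0.102 (limma). It ranged from -0.60 without IL-33 replicate 1 to -0.41 without IL-33 replicate 3. Myc passed in 2 of 13 alternative fits: when only genes as bright as the median gene or brighter were tested (adjusted p of 0.0274, limma) and with a trended and robust prior variance (adjusted p of 0.00372, limma).

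**Figure D2:**
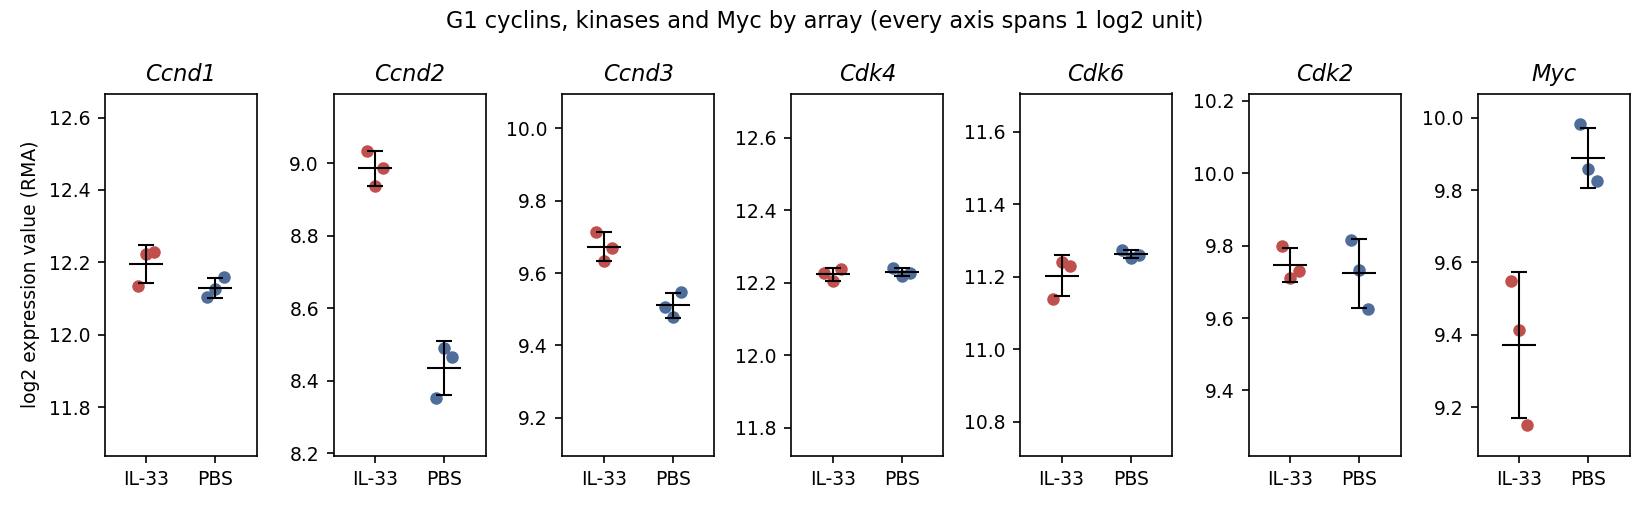
Log2 expression value of each G1 member by array (vertical axis, spanning 1 log2 unit in every panel), IL-33 left and PBS right; points are arrays, horizontal lines are means and bars are SD (n = 3 each). Ccnd2 is higher in all IL-33 arrays, Ccnd3 is higher by a smaller step, and Myc is lower with a wide spread among IL-33 arrays.

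The S phase members gave no call: 23 were measured and 0 passed (limma), against 0.591% of all genes. Of their differences 13 were above 0 and 10 below, and the median was 0.015 (log2). The median was 0.033 without IL-33 replicate 2 and 0.0011 without PBS replicate 1, and it was below 0 without IL-33 replicate 3 (-0.0019) and without PBS replicate 3 (-0.0027). At an unadjusted p under 0.05, 1 was higher and 1 lower, which is 8.7% against 13.2% of all genes. In the replicative helicase, which the Mcm2 to Mcm7 ring forms with Cdc45 and the GINS complex, none of 9 subunits passed and differences ran from -0.01 to 0.14. Mcm2 was almost constant, with log2 values of 10.27, 10.27 and 10.33 in the IL-33 arrays, against 10.29, 10.30 and 10.29 in the PBS arrays. Mcm6 had log2 values of 10.00, 10.03 and 10.16 in the IL-33 arrays, against 9.90, 9.96 and 9.98 in the PBS arrays, so its groups did not overlap. Its difference of 0.12 ± 0.06 (log2, SE) did not pass, with an adjusted p of 0.482 (limma). The GINS subunit Gins1 had log2 values of 7.99, 7.94 and 8.05 in the IL-33 arrays, against 7.80, 7.93 and 7.81 in the PBS arrays. The IL-33 arrays were higher by 0.14 ± 0.06 (log2, SE), with the lowest of them next to the highest PBS array and an adjusted p of 0.383 (limma). The other GINS subunit on the list, Gins2, differed by -0.01.

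Cdc6, which loads the helicase at origins together with Cdt1, had log2 values of 8.95, 8.76 and 8.91 in the IL-33 arrays, against 9.02, 9.05 and 9.07 in the PBS arrays. All IL-33 arrays were lower, replicate 2 most of all, and the difference of -0.17 ± 0.06 (log2, SE) had an adjusted p of 0.318 (limma). Cdt1 differed by -0.06 and Mcm10, which helps to activate the loaded helicase, by 0.06. E2f1, the E2F factor that drives many of these promoters, had log2 values of 9.66, 9.73 and 9.73 in the IL-33 arrays, against 9.85, 9.74 and 9.81 in the PBS arrays. The groups were separated by a narrow margin, the difference was -0.09 ± 0.05 (log2, SE), and the adjusted p was 0.512 (limma). Ccne1, which encodes cyclin E1 and is itself an E2F target, differed by 0.02 ± 0.06 (log2, SE).

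At the replication fork the smallest p of S phase belonged to Rfc3, a subunit of the complex that loads the sliding clamp. Rfc3 had log2 values of 8.46, 8.29 and 8.45 in the IL-33 arrays, against 8.16, 8.21 and 8.20 in the PBS arrays. Every IL-33 array was above every PBS array, and the difference of 0.21 ± 0.06 (log2, SE) did not pass, with an adjusted p of 0.213 (limma). The clamp itself, Pcna, had log2 values of 12.01, 12.003 and 12.04 in the IL-33 arrays, against 12.02, 12.03 and 12.06 in the PBS arrays. Those groups overlapped and differed by -0.02 ± 0.05 (log2, SE). The DNA polymerase alpha subunit Pola1 and the primase subunit Prim1 differed by 0.12 ± 0.08 and 0.10 ± 0.08 (log2, SE), with PBS replicate 3 the lowest array of both.

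None of 3 genes of nucleotide supply passed. The ribonucleotide reductase subunits Rrm1 and Rrm2 differed by 0.08 and -0.07 (log2), and a second, dimmer probe set of Rrm2 differed by -0.0086. Tyms, the thymidylate synthase, had the widest spread of the S phase members, with log2 values of 8.49, 8.02 and 8.12 in the IL-33 arrays, against 8.23, 8.24 and 8.18 in the PBS arrays. Its IL-33 replicate 1 was the highest array and replicate 2 the lowest, which left a difference of -0.0076 ± 0.12 (log2, SE). Uhrf1, which maintains DNA methylation at the fork, had log2 values of 8.94, 8.93 and 8.98 in the IL-33 arrays, against 8.98, 9.14 and 9.03 in the PBS arrays, a difference of -0.10 ± 0.06 (log2, SE). Slbp, the histone mRNA binding protein, differed by 0.04 ± 0.06 (log2, SE).

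The G2 and mitosis members also gave no call: 25 were measured and 0 passed (limma), against 0.591% of all genes. Of their differences 14 were above 0 and 11 below, and the median was 0.018 (log2). At an unadjusted p under 0.05, 1 member was higher and none lower, which is 4% against 13.2% of all genes. That member was Cenpe, a kinesin of the kinetochore, with log2 values of 9.04, 9.07 and 9.10 in the IL-33 arrays, against 8.87, 8.90 and 8.92 in the PBS arrays. Its groups were tight and did not overlap, with a difference of 0.17 ± 0.05 (log2, SE) and an adjusted p of 0.202 (limma). Cenpe passed in 2 of 13 alternative fits, at 0.0457 among genes as bright as the median gene or brighter and at 0.0453 with a trended and robust prior variance (adjusted p, limma).

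The paralogous checkpoint kinase genes Bub1 and Bub1b differed in opposite directions, and neither passed. Bub1b had log2 values of 9.34, 9.35 and 9.44 in the IL-33 arrays, against 9.24, 9.31 and 9.24 in the PBS arrays. Bub1 had log2 values of 10.25, 10.28 and 10.34 in the IL-33 arrays, against 10.42, 10.37 and 10.38 in the PBS arrays. The differences were 0.12 ± 0.05 and -0.10 ± 0.05 (log2, SE), with adjusted p of 0.419 and 0.479 (limma). Cenpf, a large kinetochore protein, had log2 values of 7.40, 7.51 and 7.60 in the IL-33 arrays, against 7.34, 7.42 and 7.46 in the PBS arrays. Its groups overlapped, with a difference of 0.10 ± 0.07 (log2, SE), and the checkpoint kinase Ttk differed by -0.02 ± 0.08 (log2, SE).

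None of the mitotic kinase Cdk1 and its 2 measured cyclins passed. Cdk1 had log2 values of 10.86, 10.81 and 10.93 in the IL-33 arrays, against 10.82, 10.80 and 10.87 in the PBS arrays, which overlap. Ccnb2, a B-type cyclin, had log2 values of 10.52, 10.48 and 10.62 in the IL-33 arrays, against 10.47, 10.36 and 10.42 in the PBS arrays. The lowest IL-33 array of Ccnb2 stood next to the highest PBS array, and the difference was 0.12 ± 0.06 (log2, SE) with an adjusted p of 0.452 (limma). Ccna2, cyclin A2, differed by 0.02 ± 0.07 (log2, SE).

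Cdc20, the activator of the anaphase-promoting complex, had log2 values of 9.44, 9.59 and 9.58 in the IL-33 arrays, against 9.57, 9.67 and 9.70 in the PBS arrays. The IL-33 arrays were lower on the whole but overlapped the PBS arrays, with a difference of -0.11 ± 0.07 (log2, SE). Ube2c, the ubiquitin-conjugating enzyme of the same complex, differed by -0.01 ± 0.06 (log2, SE). The proliferation marker Mki67 had log2 values of 10.47, 10.53 and 10.53 in the IL-33 arrays, against 10.44, 10.56 and 10.60 in the PBS arrays. It overlapped fully, and the 95% interval of its difference ran from -0.17 to 0.12 (log2). Top2a, the topoisomerase that untangles chromosomes, differed by 0.07 ± 0.06 (log2, SE).

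Among the mitotic kinases and chromosomal passengers, Aurka, Aurkb, Plk1, Nek2, Birc5 and Cdca8, none of 6 passed and differences ran from -0.06 to 0.06 (log2). Among genes of spindle motors, spindle assembly and cytokinesis, Kif11, Kif20a, Kif23, Nusap1, Tpx2, Prc1 and Ect2, none of 7 passed and differences ran from -0.07 to 0.06 (log2). All 7 genes of the spindle and cytokinesis group overlapped between IL-33 and PBS arrays, as did 17669 of all 22180 genes.

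The G2 and mitosis members varied together between replicates of the IL-33 group more than the groups differed. Their mean deviation from each gene's own mean was -0.057, 0 and 0.081 (log2) in IL-33 replicates 1, 2 and 3, against -0.043, 0.012 and 0.008 in PBS replicates 1, 2 and 3. IL-33 replicate 3 was thus high and IL-33 replicate 1 and PBS replicate 1 were low. The span of 0.138 within the IL-33 group exceeded the difference of 0.016 between groups. Over all genes too the span within the IL-33 group, 0.014, exceeded the size of the difference, -0.007. A span above the difference is therefore not particular to these members. IL-33 replicate 3 was above the gene's own mean in 23 of 25 members (92%), against 52.3% of all genes. It was the highest of 6 arrays in 14 (56%), against 19.5% of all genes. IL-33 replicate 1 was the lowest of 6 in 13 (52%), against 19.5% of all genes. Members measured on 1 array share its RNA and are not independent. Nusap1, which bundles spindle microtubules, showed the pattern most widely, with log2 values of 8.32, 8.54 and 8.69 in the IL-33 arrays, against 8.39, 8.44 and 8.54 in the PBS arrays. The median difference of these members was 0.055 without IL-33 replicate 1 and -0.029 without IL-33 replicate 3, and it was also below 0, at -0.0079, without PBS replicate 1.

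S phase members shared part of this order. Their mean deviation was 0.024, -0.041 and 0.043 (log2) in IL-33 replicates 1, 2 and 3, against -0.014, 0.015 and -0.027 in PBS replicates 1, 2 and 3. Here IL-33 replicate 2 was low, and it was the lowest of 6 arrays in 10 of 23 members (43.5%), against 17.9% of all genes. IL-33 replicate 3 was the highest in 8 of 23 (34.8%), against 19.5% of all genes. The mean difference between groups, 0.017, was smaller than the span of 0.084 within the IL-33 group, as was also so over all genes.

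**Figure D3:**
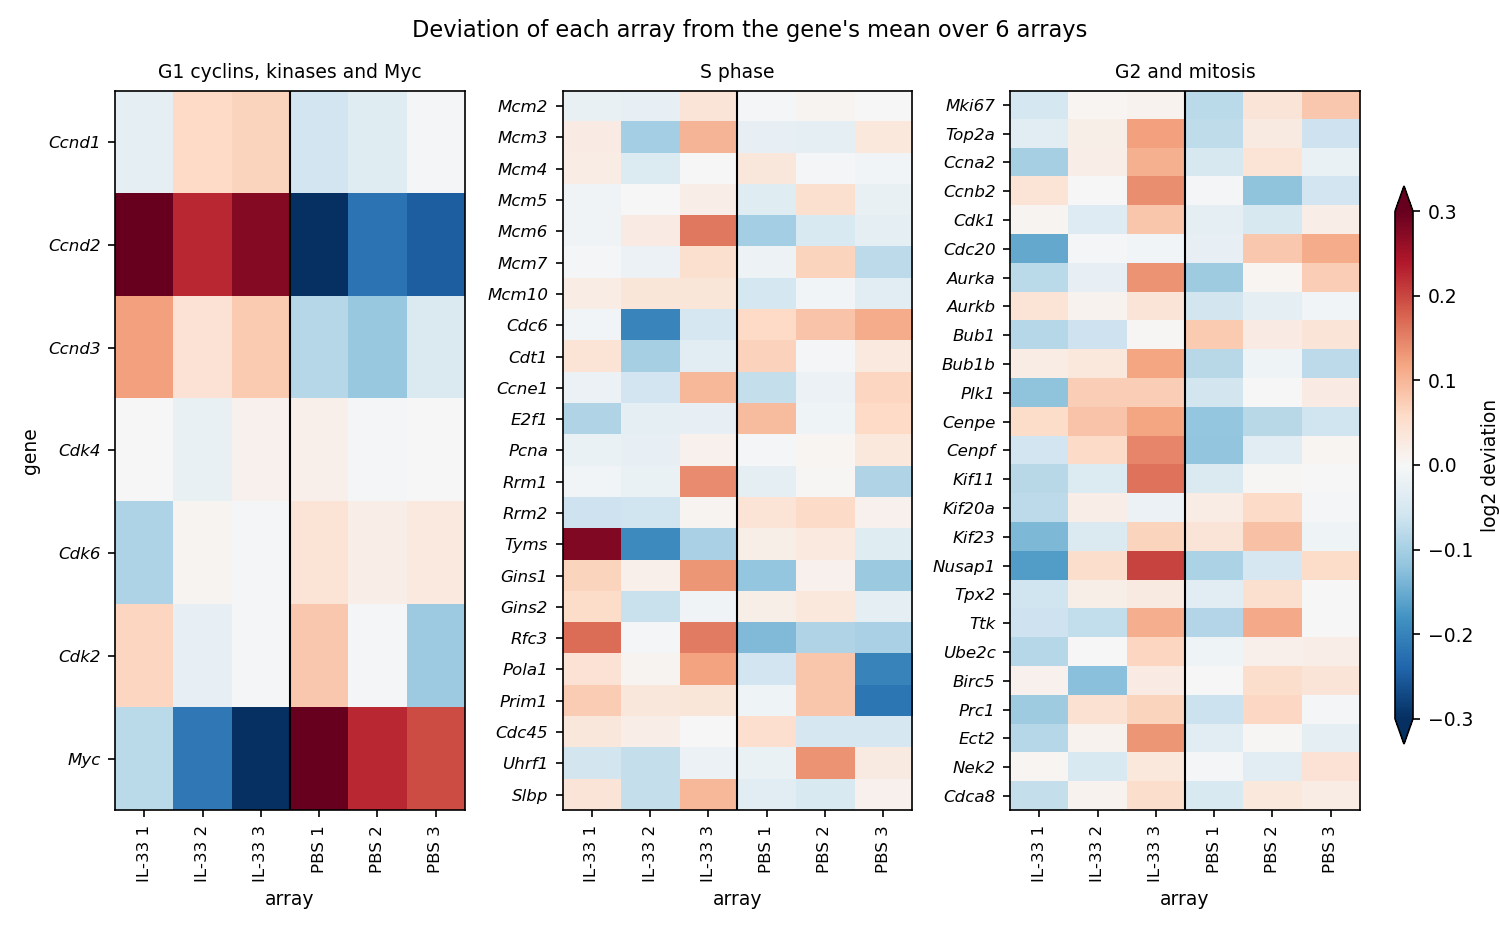
Deviation of every array from the gene's mean over the 6 arrays (colour, log2, saturating at 0.3 in either direction) for each measured member (rows) by array (columns, IL-33 left of the line and PBS right of it). Ccnd2 and Myc separate the groups in colour, while most G2 and mitosis genes share a high IL-33 replicate 3 and a low IL-33 replicate 1.

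Genes that control the members were read from further lists. Of 85 such genes measured, none passed (limma), against 0.591% of all genes. At an unadjusted p under 0.05, 4 were higher and 5 lower, which is 10.6% of them against 13.2% of all genes. Their median difference was 0.013 (log2). All 7 CDK inhibitors had overlapping groups, as did 17669 of all 22180 genes. Cdkn1a, the p21 inhibitor and a p53 target, had log2 values of 12.67, 12.70 and 12.69 in the IL-33 arrays, against 12.56, 12.58 and 12.70 in the PBS arrays, again near the top of the scale. Cdkn1b, which encodes p27, differed by 0.03 ± 0.08 and Cdkn1c by -0.04 ± 0.06 (log2, SE). The inhibitors of Cdk4 and Cdk6 differed by -0.03 ± 0.11 for Cdkn2a, -0.13 ± 0.07 for Cdkn2b, 0.05 ± 0.06 for Cdkn2c and -0.0024 ± 0.06 for Cdkn2d (log2, SE).

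Of 12 retinoblastoma family and E2F genes, 2 were higher (Rb1 and E2f6) and 2 lower (E2f7 and E2f8) at an unadjusted p under 0.05, against 6.42% and 6.74% of all genes, and none passed. Rb1, the target of Cdk4 and Cdk6, had log2 values of 9.65, 9.63 and 9.69 in the IL-33 arrays, against 9.46, 9.53 and 9.42 in the PBS arrays. The atypical repressor E2f8 had log2 values of 8.76, 8.73 and 8.70 in the IL-33 arrays, against 8.90, 8.91 and 8.89 in the PBS arrays. Both separated the groups with small spread. Their differences were 0.19 ± 0.05 and -0.17 ± 0.05 (log2, SE), each with an adjusted p of 0.194 (limma).

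Of 10 genes of the Myc network, 7 had a difference below 0, 3 of them at an unadjusted p under 0.05 (Mnt, Mga and Mycl), and none passed. Of all 22180 genes, 11551 had a difference below 0, and 6.74% were lower at an unadjusted p under 0.05. The median was -0.11 (log2), the furthest from 0 of the 8 lists. Mnt, a Max partner that represses Myc targets, had log2 values of 8.19, 8.12 and 8.10 in the IL-33 arrays, against 8.40, 8.29 and 8.42 in the PBS arrays. All IL-33 arrays of Mnt were lower, and the difference of -0.24 ± 0.06 (log2, SE) had an adjusted p of 0.156 (limma). Mycl, a Myc paralog, was dim, at 4.19 ± 0.14 in IL-33 and 4.45 ± 0.02 in PBS arrays (SD, n = 3 each), where RMA compresses differences. The paralog Mycn differed by 0.025 ± 0.05 and the partner Max by -0.04 ± 0.05 (log2, SE).

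In the remaining lists no gene passed, and the 2 genes with the smallest p are given for each. Of 7 MuvB, B-Myb and FoxM1 genes, Lin52 differed by -0.09 and Rbbp4 by 0.05 (log2). Of 11 origin recognition and replication kinase genes, Ticrr differed by -0.12 and Orc2 by 0.08. Of 11 checkpoint kinase and CDK phosphatase genes, the CDK-activating kinase subunits Mnat1 and Ccnh differed by 0.16 and 0.14. Of 18 ubiquitin ligase genes, Fbxw7, whose product targets cyclin E and Myc for degradation, differed by -0.13 and Cdc16 by 0.10. Of 9 other cyclins, Ccng1, a p53 target, differed by 0.15 and Ccnt2 by -0.08. The adjusted p of these 10 genes ran from 0.311 to 0.717 (limma).

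**Figure D4:**
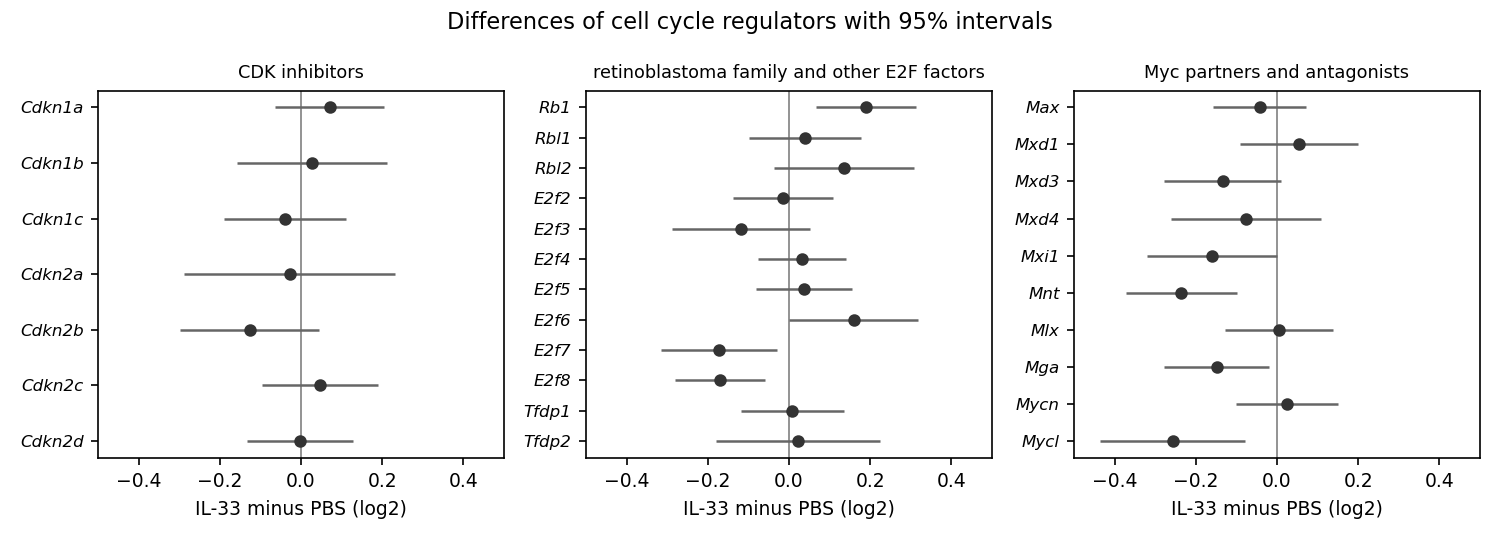
Difference between IL-33 and PBS arrays (log2, horizontal axis) of CDK inhibitors, of retinoblastoma and E2F genes, and of Myc network genes; points are differences and bars are 95% intervals. The intervals of all CDK inhibitors include 0, whereas Rb1 and E2f6 lie above 0 and E2f7, E2f8, Mnt, Mga and Mycl lie below it, none past the threshold after adjustment.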

How the data were processed

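RNA of 6 samples was hybridised to 6 whole-transcript arrays, and the deposited table holds 1 log2 value per probe set and array. The authors made these log2 values with RMA, per the submitters' processing notes, and no version of RMA is named in the sources used here. RMA makes arrays alike in distribution, which hides a shift common to most genes. Of 41345 probe sets, 23521 carried exactly 1 symbol in the platform annotation, 1814 several and 16010 none here, which gave 22180 genes, each by its brightest probe set over the 6 arrays.

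Groups came from the sample titles. The log2 values were fitted in R 4.3.3 by the package limma 3.58.1, using lmFit and then eBayes with group as the only term, with Benjamini-Hochberg adjustment over all genes and a threshold of 0.05. The fit was tested on simulated data. No p was computed for a list. Members and lists were chosen with earlier results of these data known. Values by array are given for all G1 members and, in each other phase, for the 6 with the smallest p, the 2 with the largest difference and a few set ones; of each regulator list the 2 with the smallest p are named, and of CDK inhibitors all. Tyms, Pola1, Prim1, Nusap1 and the others named beyond this rule were chosen after their values were seen. No 2 arrays were identical. Both groups carry replicate numbers 1 to 3 with no stated pairing. The numbers were not taken as pairs. Alternatives were a filter on dim genes, 2 scalings, averaged probe sets, a replicate block, another prior variance, all probe sets and each array left out. Figures used matplotlib 3.10.9 in Python 3.11.15.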

Additional observations from a re-analysis of the deposited data

How the results depend on the processing

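Of the 55 members, 51 passed in none of 13 alternative fits. The others were Ccnd2, which passed in 5 of 7 alternatives that kept all arrays and in none of 6 that left one out, and Ccnd3, Myc and Cenpe. Calls over all genes numbered 131, against 760 when only genes as bright as the median gene or brighter were tested, 1000 with a trended and robust prior variance, 21 with the replicate block, 17 over all probe sets, and 15 to 83 with an array left out (15 without IL-33 replicate 2 and 83 without IL-33 replicate 1). G1 members called numbered 1, against 2 (Ccnd2 and Myc) among the brighter genes, 3 (with Ccnd3) with the trended and robust prior, 0 with the replicate block, where the adjusted p of Ccnd2 was 0.117 (limma), 0 over all probe sets, where it was 0.0942, and 0 with any array left out. G2 and mitosis members called were 1 (Cenpe) among the brighter genes and with the trended and robust prior, and 0 otherwise. S phase members called were 0 throughout. Medians kept within the spread between arrays except that of G1, which ranged from -0.0073 to 0.0516 with an array left out. Subtracting the 75th percentile of each array gave a S phase median of -0.0021, and a further quantile normalization gave a G2 and mitosis median of -0.0012. The block changed no other member's call. Over genes as bright as the median gene or brighter, deviations from group means of same-numbered arrays correlated at r = 0.082, 0.088 and 0.022. Over the same genes, 4 of 6 arrays correlated best with their own number. Controls could not be told from other probe sets in the files, so they were kept among all probe sets. Of the regulators, Rb1 and Mnt passed among the brighter genes and with the trended and robust prior, E2f8 among the brighter genes, and Ccng1 with that prior. Genes near the bottom of the scale are limited by compression, and compression near the top was not tested.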
